A study of Mus musculus with 2 samples.

Results

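The 6 genes described here, Scx, Mkx, Tnmd, Comp, Thbs4 and Kera, are tendon genes given as a list, and they were followed in cells grown from the mouse periosteum, the membrane that covers bone. All 6 were among the 31055 features of both single-cell matrices. They were read in EGFP lineage cells, meaning cells with at least 3 EGFP UMIs (unique molecular identifiers, 1 for each captured transcript) and at least 5 EGFP UMIs per 10000. That rule held for 3507 of 12573 retained cells at day 3 after tibial fracture and for 2540 of 4269 retained uninjured cells.

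The mice of both groups were Prx1Cre;mTmG animals. The Prx1 promoter is active in limb mesenchyme, and Cre there switches a membrane tdTomato reporter to membrane EGFP, so EGFP marks descendants of cells that once used that promoter and not a present cell type. The day-3 library came from mice 3 days after fracture and the uninjured library from mice without injury. Each group is 1 library, and the labels give neither the number of animals nor their age, so no difference between the groups has a replicate check. The labels describe explants grown to 80% confluence in alpha-MEM with 20% fetal bovine serum and 10 ng/mL bFGF at 33 °C, whereas the series text speaks of cells used without expansion. All live cells were loaded, without a sort for EGFP. Animals, culture dish and injury therefore cannot be told apart.

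The day-3 library held 227191961 UMIs in 16332 barcodes (median 7030) and the uninjured library 94034112 UMIs in 4573 barcodes (median 19366), and 3 barcodes occurred in both. Lineage cells had a median of 31667 UMIs at day 3 and 24331 uninjured. The summed level of 8 mesenchymal markers was 2335 CPM (UMIs per 1000000 UMIs of the cells summed) in day-3 lineage cells and 4895 CPM in uninjured lineage cells, against 129 and 1118 CPM in the macrophage-marker cells outside the lineage. Of the other marker lists, 10 macrophage genes summed to 249 CPM at day 3 and 1168 CPM uninjured in lineage cells, and 10 measured chondrocyte genes to 153 and 79.4 CPM. The skeletal muscle list summed to 6.03 and 7.47 CPM, with Pax7 and Myog at 0 in both. Cells with no Xist UMI and at least 1 UMI of a Y-linked gene made up 14.6% of lineage cells at day 3 and 83.4% uninjured, so the libraries also differed in the sex of their cells.

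Tendon is built from parallel collagen fibres laid down by tenocytes, and its ends are anchored in bone through the periosteum or fibrocartilage. Scx (scleraxis) is a basic helix-loop-helix transcription factor of tendon progenitors, and Mkx (Mohawk) is a homeobox factor needed for normal tendon collagen. Tnmd (tenomodulin) is a transmembrane glycoprotein of mature tenocytes that depends on Scx in the mouse. Comp and Thbs4 are secreted pentameric thrombospondins that bind collagen, Comp in cartilage as well as in tendon. Kera (keratocan) is a small leucine-rich keratan sulfate proteoglycan best known from the cornea and also made in tendon.

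On GRCm38 (mm10), the gene models of GENCODE vM21 placed Scx at chr15:76457452-76459458 on the plus strand. Tnmd lies at chrX:133850980-133865577 and Kera at chr10:97606879-97613692, both on the plus strand. Comp lies at chr8:70373558-70382066 on the plus strand and Thbs4 at chr13:92751590-92794818 on the minus strand. Scx overlaps Bop1, a ribosome biogenesis gene on the opposite strand. The sources used here do not say whether the counting used strand, so reads of Scx and Bop1 may not be fully separated. Bop1 had 48.7 CPM in day-3 lineage cells and 38.0 CPM in uninjured lineage cells, the opposite order to Scx below.

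The RefSeq promoter table (GRCm38.p6, 250 bases before to 50 bases after the start) held 3 of the 6 genes, Tnmd, Thbs4 and Kera. The promoters of Tnmd and Thbs4 are shown because these genes had among the largest differences between the libraries, and because Scx is a factor of the class that binds the E-box CANNTG. Both read 5′ to 3′ along the gene, with CANNTG in capitals. Tnmd is chrX:133850758-133851057 on the plus strand and Thbs4 is chr13:92794769-92795068 on the minus strand.
Tnmd: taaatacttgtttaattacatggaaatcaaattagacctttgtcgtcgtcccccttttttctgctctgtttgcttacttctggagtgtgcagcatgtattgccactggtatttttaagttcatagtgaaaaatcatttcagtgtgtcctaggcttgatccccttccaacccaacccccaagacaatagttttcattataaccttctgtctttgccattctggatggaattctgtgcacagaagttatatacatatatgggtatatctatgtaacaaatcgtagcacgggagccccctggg
Thbs4: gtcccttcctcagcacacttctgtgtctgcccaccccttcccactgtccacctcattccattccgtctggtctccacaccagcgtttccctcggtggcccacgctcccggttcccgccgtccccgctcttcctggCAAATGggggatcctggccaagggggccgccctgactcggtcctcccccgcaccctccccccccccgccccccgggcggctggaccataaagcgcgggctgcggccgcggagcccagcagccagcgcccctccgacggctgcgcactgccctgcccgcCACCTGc
The Tnmd window held 0 CANNTG and the Thbs4 window 2, CAAATG and CACCTG, whereas 72.3% of the 32851 promoters of the same length held at least 1. CANNTG reads the same on both strands. CAGATG, a form of CANNTG searched on both strands (its complement is CATCTG), was in neither window and in 17.2% of all promoters. TATAAA on the given strand was in neither window and in 8.32% of all promoters. The Kera window held none of these motifs. GC content was 40% for Tnmd and 72% for Thbs4, beside a median of 52.7%. A motif absent here is absent from these letters only.

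Day-3 lineage cells carried far less of the membrane and matrix genes Tnmd, Comp and Thbs4 and less of Scx than uninjured lineage cells. Summed over the 6 genes, the level was 11.6 CPM at day 3 and 150 CPM uninjured. Among 8229 genes with at least 10 CPM in either library, 6.38% were at least 2-fold lower at day 3 (525 genes) and 17% at least 2-fold higher (1400 genes). Of the 6 tendon genes, 4 reached 10 CPM, and all 4 were at least 2-fold lower. The median log2 ratio of all 8229 genes was 0.21. CPM here is not divided by gene length, so levels are compared between libraries and not between genes. A lower summed level can come from fewer cells with the transcript or from less of it per cell, and cell numbers are given beside it for that reason. Intervals below cover counting error only.

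Scx had 902 UMIs in 611 day-3 lineage cells (17.4% of cells, 7.59 CPM, 95% exact Poisson interval 7.10 to 8.10) and 2098 UMIs in 803 uninjured lineage cells (31.6%, 31.8 CPM, 30.4 to 33.2). It was thus 4.19-fold lower at day 3 (ratio 0.239, exact conditional interval 0.221 to 0.258). Scx was the most widely detected of the 6 genes at day 3, where 438 of its 611 cells had a single UMI and the highest cell had 9. Uninjured, 427 of 803 cells had at least 2 UMIs and the highest had 28.

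Mkx, at chr18:6934518-7004780 on the minus strand, was sparse in both libraries, with 124 UMIs in 121 day-3 cells (3.45%, 1.04 CPM, 0.868 to 1.24) and 172 UMIs in 148 uninjured cells (5.83%, 2.61 CPM, 2.23 to 3.03). Its ratio was 0.400 (0.315 to 0.507), below the 10 CPM minimum and so outside the count above. No cell of either library had more than 4 Mkx UMIs. Mkx overlaps AC148004.2, annotated on the same strand, which is not among the features and so was not counted apart.

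Tnmd, the marker of mature tenocytes, had a lower ratio than Comp over all lineage cells, but not in deep cells, in male cells, in thinned cells or without cartilage cells. In deep cells (at least 10000 UMIs) its log2 ratio was -6.76, beside -8.17 for Comp. It had 21 UMIs in 17 day-3 cells (0.485%, 0.177 CPM, 0.109 to 0.270) and 1093 UMIs in 420 uninjured cells (16.5%, 16.6 CPM, 15.6 to 17.6), a ratio of 0.0107 (0.00658 to 0.0164). A single day-3 cell held 4 of the 21 UMIs, and 15 of the 17 cells had 1 each.

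Comp had 132 UMIs in 59 day-3 cells (1.68%, 1.11 CPM, 0.929 to 1.32) and 4080 UMIs in 1146 uninjured cells (45.1%, 61.8 CPM, 59.9 to 63.7). The ratio was 0.0180 (0.0150 to 0.0214). Thbs4 had 201 UMIs in 86 day-3 cells (2.45%, 1.69 CPM, 1.47 to 1.94) and 2464 UMIs in 526 uninjured cells (20.7%, 37.3 CPM, 35.9 to 38.8), with a ratio of 0.0453 (0.0390 to 0.0523). Comp was the most widely detected of the 6 genes in uninjured cells and the least concentrated of the 5 that were not near 0. The 5% of uninjured cells (127) with most of each gene held 39.3% of Comp UMIs, 46.2% of Scx, 63.4% of Thbs4 and 66.7% of Tnmd UMIs. For Mkx they held 87.8%, a share that its 148 cells nearly fix.

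Kera was close to undetected, with 1 UMI at day 3 and 6 UMIs in 5 cells uninjured. Its ratio of 0.0926 had a counting interval of 0.00201 to 0.763.

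**Figure D1:**
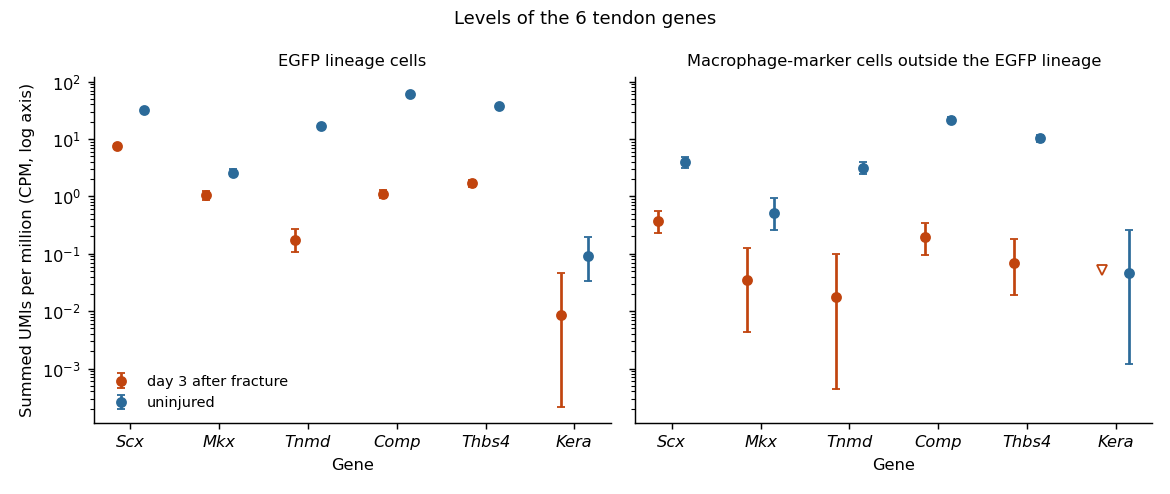
Summed level (CPM, log axis) of the 6 tendon genes at day 3 and uninjured, in EGFP lineage cells (left) and in macrophage-marker cells outside the lineage (right). Points are 1 library each with 95% exact Poisson intervals. The open triangle is the floor of 3 counts for Kera in day-3 macrophage-marker cells, where it had 0 UMIs. In lineage cells each gene lies lower at day 3, such as Scx (7.59 against 31.8 CPM) and Tnmd (0.177 against 16.6 CPM), with overlapping intervals only for Kera.

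Transcripts of the tendon genes were also counted in cells that should lack them. Macrophage-marker cells outside the lineage (at least 5 UMIs of 9 macrophage genes) numbered 7211 at day 3 (median 6153 UMIs) and 1617 uninjured (median 11998). Comp was detected in 0.153% of them at day 3 and 13.9% uninjured, Thbs4 in 0.0555% and 4.95%, Tnmd in 0.0139% and 3.40%, Scx in 0.291% and 3.46%, and Mkx in 0.0277% and 0.680%. These shares are taken as background.

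Lineage and macrophage-marker cells differ in depth, so both were also thinned to 10000 UMIs a cell, which left out 386 day-3 and 90 uninjured lineage cells, and 5372 and 581 macrophage-marker cells. In thinned day-3 cells Comp was at its background, in 0.224% of lineage cells (exact interval 0.0902 to 0.462) against 0.163% of macrophage-marker cells (0.0337 to 0.476). Scx, at 6.60% against 0.381%, and Thbs4, at 1.12% against 0.0544%, were above it. Mkx was in 0.961% of day-3 lineage cells and Tnmd in 0.128%. Neither was found in the 1839 thinned macrophage-marker cells, for which the exact interval allows a share of up to 0.200%. Tnmd at day 3 was therefore not separable from background at this depth. In thinned uninjured cells, detection in the lineage against macrophage-marker cells was 17.7% against 3.38% for Scx, 2.82% against 0.676% for Mkx, and 9.10% against 2.22% for Tnmd. For Comp it was 30.9% against 13.4%, and for Thbs4 15.4% against 4.25%. Every one of the 5 genes was thus above its background in uninjured lineage cells, with Comp closest to it.

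Few day-3 lineage cells and many uninjured ones held several of the 6 genes. With counts as deposited, 79 of 3507 day-3 cells (2.25%) had UMIs of at least 2 of them and 5 cells of at least 3. In 0 cells were there 4 or more, for which the exact interval allows a share of up to 0.105%. Of the 2540 uninjured cells, 861 (33.9%, exact interval 32.1 to 35.8) had at least 2, 306 (12.0%) at least 3 and 60 (2.36%) at least 4. In macrophage-marker cells outside the lineage, 0 of 7211 cells had at least 2 at day 3 (exact interval up to 0.0511%) and 86 of 1617 (5.32%, 4.28 to 6.53) uninjured. Thinned to 10000 UMIs, at least 2 genes were found in 13 day-3 lineage cells (0.417%) and in 444 uninjured lineage cells (18.1%), against 4.05% of thinned uninjured macrophage-marker cells. Thinning lowered the shares, and the order of the cell groups was the same at both depths. Such shares rise with how often each gene is detected on its own, such as Comp in 45.1% and Scx in 31.6% of uninjured lineage cells. They were not set against the shares that unrelated genes would give, so by themselves they do not show that the genes go together.

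**Figure D2:**
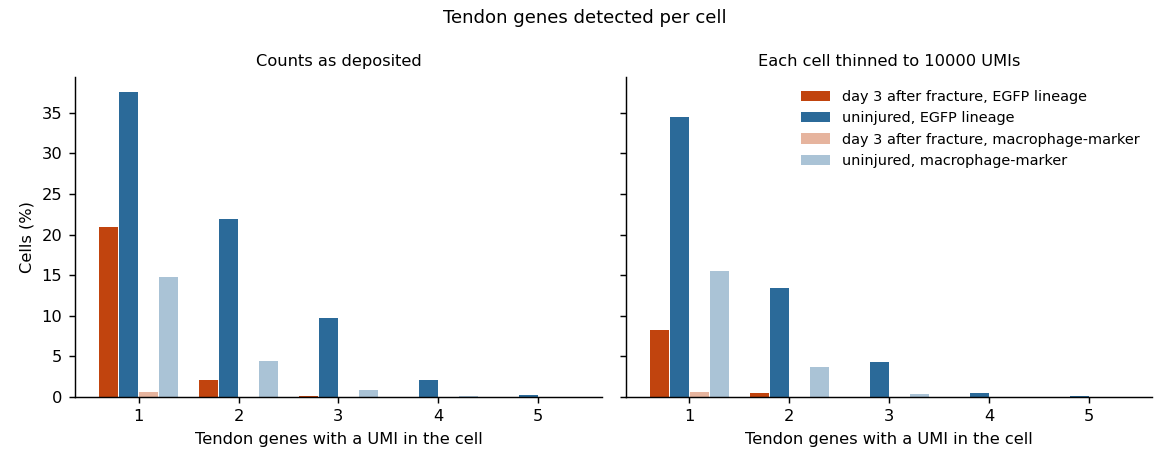
Share of cells (%) with UMIs of 1 to 5 of the tendon genes, with counts as deposited (left) and with each cell thinned to 10000 UMIs (right). Bars stand for EGFP lineage cells and macrophage-marker cells outside the lineage at day 3 and uninjured. Day-3 lineage cells with at least 2 genes made up 2.25% as deposited and 0.417% thinned, and uninjured lineage cells 33.9% and 18.1%.

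Comp and Thbs4 were often found in the same uninjured cells. Of 526 uninjured lineage cells with Thbs4, 345 also had Comp (65.6%, 61.4 to 69.7), against 39.8% of cells without Thbs4. Read the other way, 30.1% of the 1146 cells with Comp also had Thbs4 (27.5 to 32.9), against 13.0% of cells without Comp. Cells with Thbs4 held 1682 of the 4080 Comp UMIs (41.2%, 39.7 to 42.8) while making up 20.7% of cells. At equal depth, thinned cells with Thbs4 had Comp in 218 of 377 cases (57.8%, 52.7 to 62.9), against 26.0% of thinned cells without it. Pearson's r of log-transformed UMIs per 10000 across the 2540 cells, which share 1 library, was 0.37 (Spearman's rho 0.28), and 0.32 in thinned cells.

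Mkx went with Thbs4: 69 of 148 Mkx cells (46.6%) had Thbs4, against 19.1% of cells without Mkx. Thinned, this was 25 of 69 cells (36.2%) against 14.8%. Tnmd was found in 28 of 148 Mkx cells (18.9%), against 16.4% of cells without Mkx. Thinned, it was found in 4 of 69 Mkx cells (5.80%, 1.60 to 14.2), against 9.20%, so the direction was not the same at both depths.

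Tnmd was found with Comp in 220 of 420 Tnmd cells (52.4%), against 43.7% of cells without Tnmd, and the gap was wider in thinned cells, at 47.1% against 29.3%. Thbs4 was found in 23.6% of Tnmd cells, against 20.1% of cells without Tnmd. Thinned, it was in 44 of 223 Tnmd cells (19.7%), against 333 of 2227. Comp was about as frequent in cells with Scx as without it. It was found in 368 of 803 Scx cells (45.8%), against 44.8% of cells without Scx, and in thinned cells the shares were 31.2% and 30.9%. Thbs4, in contrast, was more frequent in Scx cells, at 27.3% (24.2 to 30.5) against 17.7% of cells without Scx, and at 20.8% against 14.2% in thinned cells. Scx cells had Tnmd in 21.3%, against 14.3% of cells without Scx, but they were deeper (median 27148 against 23365 UMIs). Thinned, these shares were 10.4% and 8.82%.

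With counts as deposited, correlations across cells were low for every pair other than Comp with Thbs4 and Mkx with Thbs4 (Pearson's r 0.24). They were 0.13 for Mkx with Comp, 0.11 for Tnmd with Comp, 0.11 for Scx with Thbs4, 0.07 for Scx with Tnmd and 0.04 for Scx with Comp. In cells thinned to 10000 UMIs, the r of Mkx with Thbs4 was 0.12, within the range of these. With 1 or a few UMIs a cell, values this low say little about whether cells share the transcripts.

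**Figure D3:**
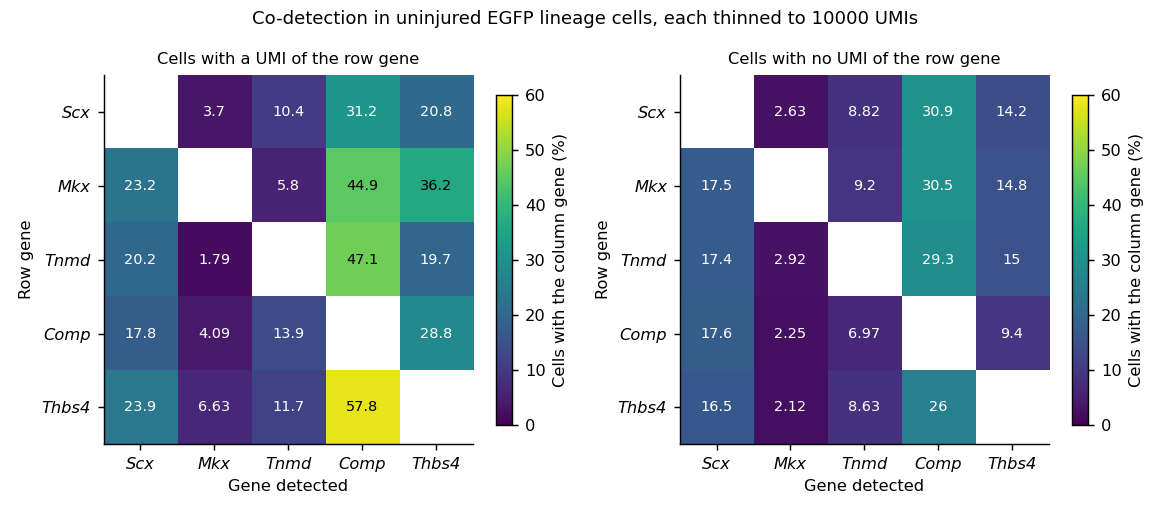
Share of uninjured EGFP lineage cells (%) with a UMI of the column gene, among cells with (left) and without (right) a UMI of the row gene, each cell thinned to 10000 UMIs. The fullest box is Comp in Thbs4 cells (57.8%, against 26.0% of cells without Thbs4), while Comp was found alike in cells with and without Scx (31.2% and 30.9%).

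Comp, Thbs4, Mkx and Kera were highest in the same cluster of uninjured lineage cells, and Tnmd and Scx each in another. The clusters were made without the 6 genes. Clusters are described by their leading genes, and their levels are a description with no test. Cluster 6 (163 cells, led by Ndufa4l2, Il33, Lum and Dcn) had the most Comp, 312 CPM (294 to 331) with a UMI in 87.1% of cells, and the most Thbs4, 237 CPM (221 to 254) in 73.0%. It held 26.5% of all Comp UMIs, 33.3% of Thbs4, 19.2% of Mkx and 5 of the 6 Kera UMIs. Mkx, at 9.54 CPM, and Kera were also highest in this cluster. Its Scx level was 63.9 CPM, with a UMI in 54.0% of cells and above the 31.8 CPM of all uninjured lineage cells.

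Cluster 5 (201 cells, led by Pdzrn4 and Igf1) had 177 CPM of Comp, 89.9 CPM of Thbs4 and the highest Tnmd, 72.9 CPM with a UMI in 40.3% of its cells. Cluster 9 (110 cells, led by S100b and Itm2a) came next for Tnmd with 43.6 CPM, beside 48.3 CPM of Scx and 5.50 CPM of Thbs4.

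The highest Scx, 74.4 CPM (67.9 to 81.3) in 68.2% of cells, was in cluster 4 (220 cells), whose leading genes include the osteoblast genes Ibsp, Bglap2 and Alpl. That cluster held 22.9% of Scx UMIs but had 27.7 CPM of Comp, 2.47 CPM of Thbs4 and 0.619 CPM of Mkx. Cluster 11 (92 cells, led by Gzme, Siglecg and Ankrd1) had 71.8 CPM of Scx, 5.24 CPM of Comp and 0.925 CPM of Thbs4. Cluster 2 (269 cells, led by Hp and Sfrp1) showed the opposite, with 128 CPM of Comp and 3.28 CPM of Scx. Clusters 1 (308 cells) and 13 (82 cells) were led by genes of macrophages (Pf4, Mrc1) and osteoclasts (Mmp9, Acp5) although they met the EGFP rule. They had 58.5 and 52.0 CPM of Comp, above the 21.7 CPM of macrophage-marker cells outside the lineage. Whether those cells are doublets was not tested beyond the caller.

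**Figure D4:**
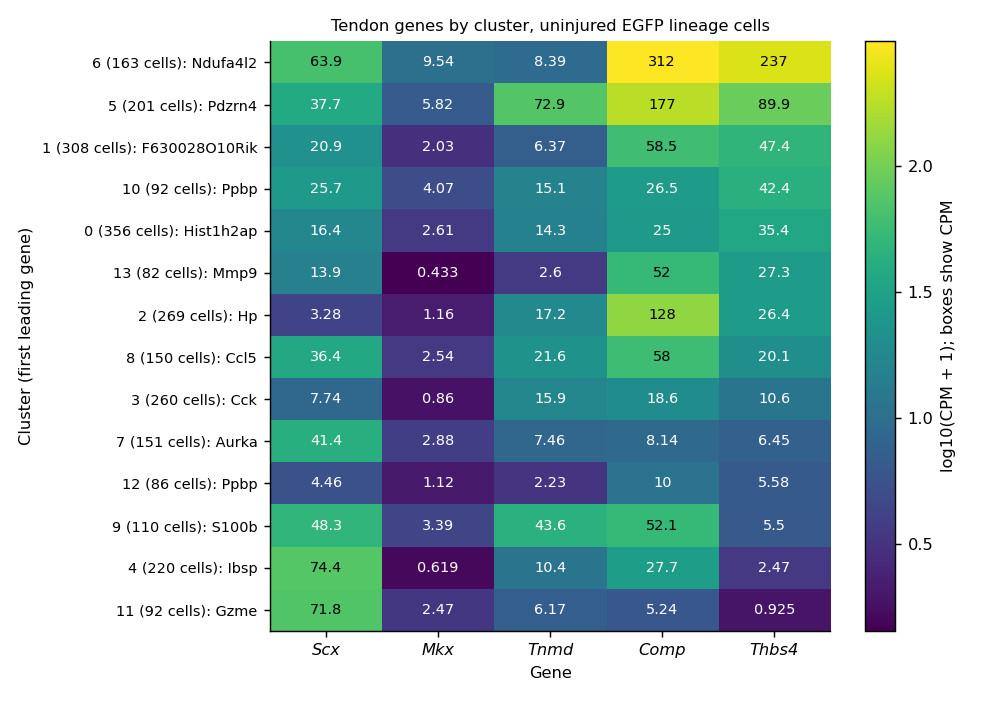
Levels of 5 tendon genes (CPM in the boxes, colour on a log10(CPM + 1) scale) in 14 clusters of uninjured EGFP lineage cells, named by number and first leading gene and ordered by Thbs4. Comp and Thbs4 are highest in cluster 6 (312 and 237 CPM), Tnmd in cluster 5 (72.9 CPM) and Scx in clusters 4 and 11 (74.4 and 71.8 CPM), where Thbs4 is at 2.47 and 0.925 CPM.

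Cells chosen by the genes themselves differed in other genes too. Uninjured cells with at least 2 UMIs each of Comp and Thbs4 (211 cells) had 409 CPM of Dcn, 238 CPM of Fmod, 152 CPM of Lum and 115 CPM of Prg4, all matrix proteoglycans, against 56.1, 34.0, 9.67 and 9.56 CPM in the 726 cells with none of the 6 genes. They had 114 CPM of Il33, an alarmin cytokine, against 3.15 CPM. Of the osteoblast genes, Alpl (alkaline phosphatase) was at 7.18 CPM and Sp7 (osterix) at 4.92 CPM, against 18.6 and 14.4 CPM, while Runx2 was at 25.4 against 26.8 CPM. In the 427 cells with at least 2 Scx UMIs, Alpl was at 40.9 CPM and Ibsp at 25.8 CPM, beside 1.44 CPM of Ibsp in the Comp and Thbs4 cells. The contractile gene Acta2 was at 697 CPM in the Comp and Thbs4 cells, 2482 CPM in the Scx cells and 1904 CPM in cells with none. The 46 cells with at least 2 UMIs each of Scx and Tnmd had 151 CPM of Aspn (asporin), against 13.3 CPM in cells with none.

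Of 12990 genes seen in at least 30 uninjured lineage cells, those most like the 6 on average were 1500015O10Rik, Mgp, Dcn, Fmod and Il33, by the mean of Pearson's r over the 6 genes across 2540 cells. These means were 0.22, 0.19, 0.19, 0.18 and 0.18. Ndufa4l2, Lum, Abi3bp, Col3a1, Gpm6b, Cbr2, Serpine2, Gas1, Igf1 and Prg4 followed, down to 0.16. With Kera left out of the mean, the order was 1500015O10Rik, Mgp, Il33, Fmod and Dcn. Each of these had its highest r with Comp and Thbs4, so the mean does not describe all 6 alike. Dcn and Il33 had r of -0.02 and -0.01 with Tnmd, and 1500015O10Rik had 0.05 with Scx. Each gene had companions of its own. Comp was closest to 1500015O10Rik (r 0.58), Gas6 (0.53) and Gas1 (0.50), and Thbs4 to Il33 (0.46), Prg4 (0.38) and Comp. Tnmd was closest to Aspn (0.27), Clec11a (0.23) and Fbn2 (0.22). Scx was closest to Ogn, Dkk3 and Csrp1 (0.26 each), and Mkx to Thbs4, Gsc (0.18) and Dcn (0.18). No companions are given for Kera, which had UMIs in 5 cells. In cells thinned to 10000 UMIs, 1500015O10Rik was still closest to Comp (0.50) and Il33 to Thbs4 (0.40).

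These companions did not share a direction at day 3. In lineage cells, 1500015O10Rik had 1.04 CPM at day 3 and 103 CPM uninjured, Ndufa4l2 1.72 and 85.9 CPM, Fmod 0.690 and 84.7 CPM, and Aspn 0.951 and 43.7 CPM. Gas6, a ligand of TAM receptors, had 11.3 CPM at day 3 and 198 CPM uninjured, and the growth factor Igf1 5.20 and 110 CPM. In contrast, Il33 had 92.1 CPM at day 3 and 18.3 CPM uninjured, although it was the gene most like Thbs4 in uninjured cells. Dcn, at 128 CPM at day 3 and 109 CPM uninjured, and Prg4, at 18.5 and 24.2 CPM, differed by less than 2-fold.

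At day 3 the remaining Comp sat in a small set of shallow cells. The 93 day-3 lineage cells with under 3000 UMIs (median 1351) held 106 of the 132 Comp UMIs (80.3%, 72.5 to 86.7), in 36 cells. Their Comp level was 756 CPM. Of the 59 day-3 Comp cells, 36 had under 3000 UMIs and 30 had at least 3 UMIs of 7 cartilage genes (Col2a1, Acan, Col9a1, Col9a2, Col9a3, Hapln1 and Matn1). Among the 3448 day-3 lineage cells without Comp, 57 had under 3000 UMIs (1.65%) and 114 were cartilage cells by that count (3.31%). The median depth was 1695 UMIs in Comp cells and 31846 UMIs in cells without Comp.

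Those shallow cells carried a matrix profile unlike the deep ones. In them Col2a1, the collagen of cartilage, had 3631 CPM and Acan (aggrecan) 1270 CPM, against 6.17 and 0.274 CPM in day-3 lineage cells with at least 10000 UMIs. Genes that went with Comp in uninjured cells were present too: 1500015O10Rik had 706 CPM against 0.214 CPM, Fmod 471 against 0.137 CPM, and Dcn 1284 against 128 CPM. Aspn, the gene closest to Tnmd in uninjured cells, had 628 against 0.197 CPM. Cluster 13 of the day-3 lineage was likewise shallow (76 cells, median 1272 UMIs) and led by C1qtnf3, Acan and Postn. It had 1027 CPM of Comp (841 to 1242) and 242 CPM of Thbs4, and held the only day-3 Kera UMI. At so few UMIs the EGFP rule is met by 3 EGFP UMIs alone, and whether these barcodes are whole cells was not tested.

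In deep day-3 lineage cells (3121 cells with at least 10000 UMIs) Comp was at 0.214 CPM (25 UMIs in 22 cells). It was at 0.236 CPM in day-3 macrophage-marker cells with the same minimum, which were shallower (median 14299 against 33547 UMIs). The uninjured values were 61.8 CPM in the lineage and 23.7 CPM in macrophage-marker cells. The log2 ratio of Comp was -8.17 between deep lineage cells and -5.80 between all lineage cells. It was -7.69 without cartilage cells and -7.83 among cells scored male. Scx, Tnmd, Comp and Thbs4 were each at least 2-fold lower in deep lineage cells, where 6.46% of the 8221 genes at the minimum were. The same 4 were also lower with cartilage cells left out, beside 6.37% of 8230 genes.

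The UMIs of Thbs4, Tnmd, Scx and Mkx lay mostly in deeper day-3 cells. Of 201 day-3 Thbs4 UMIs, 25 were in the shallow cells (12.4%), and so were 3 of 21 Tnmd, 4 of 902 Scx and 0 of 124 Mkx UMIs. Their levels in cluster 13 were nevertheless the highest of the day-3 clusters for Thbs4 (242 CPM), Scx (38.8 CPM) and Tnmd (29.1 CPM, 3 UMIs). Deep lineage cells kept 175 Thbs4 UMIs in 71 cells (2.27%), 891 Scx UMIs in 601 cells and 18 Tnmd UMIs in 15 cells (0.481%).

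Most day-3 Thbs4 UMIs lay in 3 of the clusters led by cell cycle genes: cluster 10 (Cdc20, Knstrn, Cdkn3) with 12.7 CPM (9.59 to 16.4), cluster 9 (Hist1h1b) with 6.56 CPM and cluster 11 (Nusap1, Aspm) with 4.87 CPM. They held 28.4%, 23.9% and 15.9% of its UMIs. Clusters 6 and 7, whose leading genes also include cell cycle genes (Prc1, Ube2c), had 0 and 1.06 CPM of Thbs4. With cycling cells (at least 3 UMIs of 15 cell cycle genes) left out of both libraries, the log2 ratio was -5.73 for Thbs4, beside -4.46 with them, and -5.69 for Comp. Scx was highest in cluster 13 (38.8 CPM, 4 UMIs), in cluster 10 (20.0 CPM) and in cluster 5 (264 cells, led by Sfrp4, Gzmd and Bmp2), where it had 13.8 CPM in 33.3% of cells while Thbs4, Comp and Tnmd were at 0. Thbs4 was also at 0 in cluster 1 (395 cells), where Scx had 6.58 CPM, and Scx had 6.92 CPM in cluster 6 (232 cells). Comp was at 0 in clusters 6 and 7. Cluster 12 (84 cells, led by Ccl11 and Cdh5) had 1 Scx UMI.

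**Figure D5:**
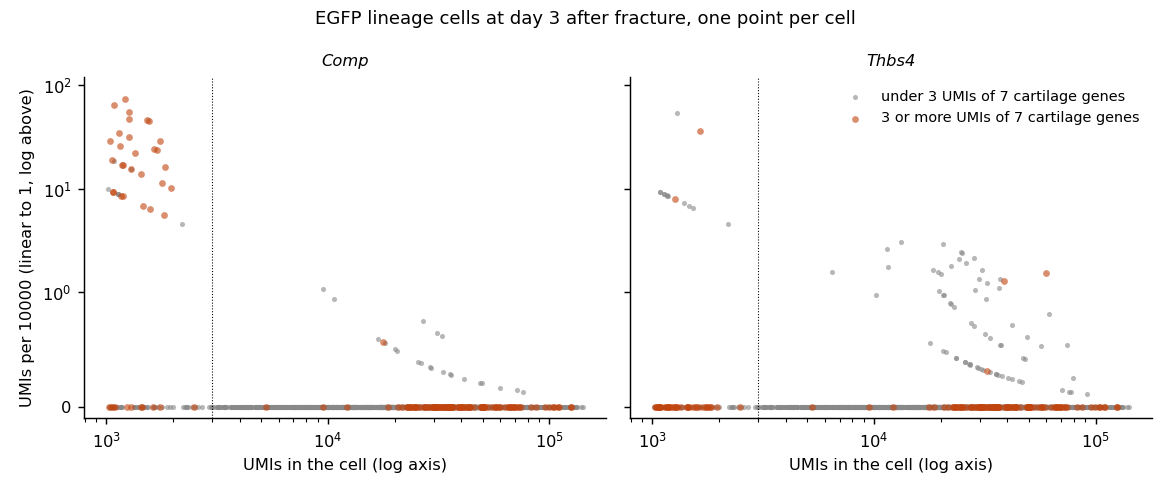
Comp (left) and Thbs4 (right) in each day-3 EGFP lineage cell, as UMIs per 10000 (linear to 1, log above) against the UMIs in the cell (log axis), with 3000 UMIs dotted and cells with at least 3 UMIs of 7 cartilage genes in orange. Most Comp lies left of the line (106 of 132 UMIs), most Thbs4 right of it (25 of 201 UMIs are left).

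Cells that met neither the EGFP rule nor the macrophage rule also held tendon genes. There were 1855 of them at day 3 (median 2327 UMIs) and 112 uninjured (median 4645 UMIs). Comp had 80 UMIs in 37 of these cells at day 3 (10.3 CPM) and 82 UMIs in 24 cells uninjured (79.1 CPM). Thbs4 had 42 UMIs in 23 cells (5.43 CPM) at day 3 and 34 UMIs in 8 cells (32.8 CPM) uninjured. Tnmd had 15 and 17 UMIs. In these cells outside the lineage, as over all lineage cells, the day-3 level of Comp was lower than the uninjured one. Lineage cells under 3000 UMIs went the other way, with 106 Comp UMIs in 93 day-3 cells and 0 in 5 uninjured cells.

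Within the lineage, cells with macrophage markers (368 at day 3 and 685 uninjured) were compared with those without. Uninjured, Comp was at 44.1 CPM in the lineage cells with macrophage markers and at 69.7 CPM in those without, and Thbs4 at 27.5 and 41.7 CPM. Scx was at 28.8 and 33.1 CPM and Tnmd at 10.8 and 19.1 CPM. All 4 genes were thus lower in the cells with macrophage markers but above their levels in macrophage-marker cells outside the lineage.

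Co-detection at day 3 was rare. Of 59 day-3 Comp cells 8 had Thbs4 (13.6%), against 2.26% of cells without Comp, and 0 had Tnmd. The correlation of Comp with Thbs4 was 0.25 over all day-3 lineage cells and 0.05 over those with at least 10000 UMIs, so it rested on the shallow cells. Thbs4 cells had Scx in 29 of 86 cases (33.7%, 23.9 to 44.7), against 17.0% of cells without Thbs4. Of 17 Tnmd cells 8 had Scx, but Tnmd cells were deeper (median 46887 UMIs, against 31597 in cells without Tnmd). In deep cells the r of Scx with Tnmd was 0.009. Scx and Thbs4 kept an r of 0.16 in deep cells.

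Of 23 genes in the tendon matrix list, 15 reached 10 CPM, of which 9 were at least 2-fold lower and 1 higher at day 3, beside 6.38% lower and 17% higher among all genes. The median log2 ratio was -1.35 in the list and 0.21 over all genes. Fmod (ratio 0.00815) and Prelp (0.160 CPM at day 3 and 19.2 CPM uninjured) were lowest, followed by Aspn, Ogn and the fibril-associated collagen Col12a1 (31.5 and 150 CPM). Col11a1, Lum, the collagen crosslinker Lox and Col5a1 had ratios of 0.293 to 0.481. Tnc (tenascin C), a matrix protein of injured and loaded tendon, was 9.37-fold higher, at 450 CPM at day 3 and 48.0 CPM uninjured. Dcn, Bgn, Col5a2, Fbn1 and Sparc differed by less than 2-fold.

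Relatives of Comp and Thbs4 differed less. Thbs1 had 620 CPM at day 3 and 349 CPM uninjured, a ratio of 1.77, Thbs2 a ratio of 0.582 and Thbs3 4.37 and 10.2 CPM. Cnmd, the homologue of Tnmd in cartilage, had 0.429 CPM at day 3 and 0.151 CPM uninjured. At day 3 it was at 494 CPM in the shallow cluster 13 and at 0 in the other lineage cells.

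Among all 8229 genes at 10 CPM or more, the shares called were 6.38% lower and 17% higher, as above. Of 16 tendon regulators, 9 reached 10 CPM and 3 of them were at least 2-fold lower, among them the ligands Tgfb2 (ratio 0.355) and Tgfb3 (0.331). None was higher. Egr1, an early growth response factor, had a ratio of 1.49, and the median log2 ratio was -0.30. Among 7 tendon progenitor genes, 6 reached the minimum: Ly6a was lower (202 CPM at day 3 and 586 CPM uninjured) and Cd34 and Nes were 2.04-fold and 7.41-fold higher. Of 8 genes of muscle attachment and mechanical signalling, all at the minimum, 6 were higher and Postn lower (4.07 and 40.7 CPM). Ctgf (7.03-fold), Ankrd1 (3.59-fold) and the stretch-gated channel Piezo2 (3.39-fold) led, and the median log2 ratio was 1.33.

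Cell sex, macrophage transcripts, depth and other marker lists differed between the libraries together with the tendon genes. In lineage cells, 5 neutrophil genes summed to 243 CPM at day 3 and 17.3 CPM uninjured, 8 osteoblast genes to 51.0 and 99.6 CPM, and 6 contractile genes to 1625 and 2586 CPM. The part of these lists in the differences was not tested. With cells limited to those scored male (513 at day 3 and 2118 uninjured), the log2 ratios were -2.16 for Scx, -7.28 for Tnmd and -4.21 for Thbs4, beside -2.07, -6.55 and -4.46 in all lineage cells. Without cells that had at least 5 UMIs of the macrophage list, they were -1.69, -7.03 and -4.70, and -6.16 for Comp. Under each of these limits the 4 genes were at least 2-fold lower at day 3. The share of all genes called lower was not computed for either limit. Leaving out only cells with at least 5 UMIs of the macrophage list without Lyz2 gave -2.09 for Scx, -6.83 for Tnmd, -5.87 for Comp and -4.55 for Thbs4, and 6.6% of 8131 genes were called lower there.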

How the data were processed

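Per the labels, single cells were loaded on a Chromium 3' v2 chip. The submitters' processing notes name Cell Ranger, Seurat 4.0.1 and mm10, and the deposited UMI counts carry software version 3.1.0 per the file headers. The authors' counting on mm10 gives no strand in the sources used here. Annotation was GENCODE vM21, which matched 30934 of 31055 feature IDs. Barcodes under 500 genes or 1000 UMIs (1412 at day 3 and 69 uninjured), over 10% mitochondrial UMIs (457 and 73) and the highest Scrublet scores (0.8% per 1000 barcodes, 1890 and 162) were removed. Scrublet's automatic threshold marked 386 and 0 barcodes.

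With 1 library per group there was no test: summed counts have exact Poisson intervals, ratios exact conditional binomial intervals and shares exact Clopper-Pearson intervals, all at 95% and for counting error only, with a floor of 3 counts. PCR was handled by UMIs. Genes at 10 CPM or more in either library and changed at least 2-fold are counted. Lineage cells of each library were clustered without the 6 genes (2000 variable genes, 30 components, 15 neighbours, resolution 1, Leiden, scanpy 1.11.5). Leading genes have at least 50 CPM in a cluster and the highest ratio to the rest. Named genes were the 6, the 15 most alike by mean r, the 3 most alike to each, and genes of the lists at 10 CPM or more. Some genes that this rule names are not reported here. Others, such as Alpl, Runx2, Sp7 and Acta2, were picked after their values were seen. Members and lists were chosen with earlier results of these data known. Alternatives covered the EGFP rule, cell filters, depth, cell subsets, scaling (TMM, edgeR 4.0.16) and the minimum level. Those at 10000 UMIs, and that without macrophage-marker cells defined without Lyz2, were chosen after seeing the data. Code was tested on simulated data. Python 3.11.15, numpy 2.4.6, scipy 1.17.1 and pandas 2.3.3 were used.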

Additional observations from a re-analysis of the deposited data

How the results depend on the processing

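The 4 tendon genes at 10 CPM or more were at least 2-fold lower at day 3 under 17 of the 18 alternatives, and with no minimum all 6 were. Those 17, and the 9 and 10 others below, include the rule that EGFP UMIs exceed tdTomato UMIs. It kept the same 3507 and 2540 lineage cells, where tdTomato was nearly absent (0.0673 CPM at day 3 and 0.182 CPM uninjured), so its values could not differ. A minimum of 50 CPM left 1 gene counted, Comp, because the others do not reach it. Among the alternatives, the share of all genes called lower was computed only for deep cells, without cartilage cells, and without macrophage-marker cells defined without Lyz2. The share of uninjured lineage cells with at least 2 of the genes (33.9%) was 26.4% with EGFP at 1 UMI or more, 22.5% over all retained cells, 6.47% and 18.1% in cells thinned to 3000 and 10000 UMIs, 40.8% without cycling cells and 15.4% when 2 UMIs were asked for. It was 33.6% to 34.7% under 9 others. The share of Comp UMIs in Thbs4 cells (41.2%) was 43.1% with EGFP at 10 per 10000, 26.2% and 35.3% in cells thinned to 3000 and 10000 UMIs, 37.9% without cells of the macrophage list (366 uninjured cells left) and 35.3% with 2 Thbs4 UMIs. It was 40.3% to 42.6% under 10 others. Thinning and a 2-UMI rule remove detections by construction; for the remaining shifts the cause was not tested.

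Across alternatives the log2 ratio ranged from -8.63 to -1.76 for Comp, -5.73 to -2.63 for Thbs4, -7.69 to -4.53 for Tnmd and -2.60 to -1.69 for Scx. For Mkx it ranged from -1.79 to -0.977, the latter in cells thinned to 3000 UMIs. There Mkx was less than 2-fold lower, with an interval of -2.12 to 0.117. The value nearest 0 for Comp, Thbs4 and Tnmd came from a mean over cells, which weights the shallow day-3 cells as much as deep ones. That mean turned Kera to 0.28, which rests on 1 day-3 UMI. No paired analysis was possible because each group is 1 library.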
